A study of Mus musculus with 6 samples.

Results

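Cluster 5 is 1 of 11 clusters that the submitters assigned to tumour-infiltrating CD8 T cells, and 1 of a pair, with cluster 3, whose cells carry high levels of cell division genes. Its members are every cell with the deposited cluster number 5: 2316 of 26698 cells, drawn from all 6 libraries, with 204 to 620 cells in each. Cluster 3 holds 2460 cells. Clusters 0 and 8, which hold 4869 and 1695 cells, carry exhausted T cell genes with little expression of division genes, and serve as the non-dividing side of each comparison.

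The cells came from subcutaneous tumours of MB49, a mouse urothelial carcinoma line, in wild-type male and female C57BL/6 mice. Mice were 6 weeks old when 500000 tumour cells were injected (a second label field gives 6 to 8 weeks), and tumours were taken on day 10. After collagenase digestion, live CD3+ CD8+ CD4- cells were sorted and sequenced with droplet-based single-cell 3' RNA sequencing, in 3 libraries per sex. The males (libraries 1, 3 and 4) and the females (libraries 2, 5 and 6) share host strain, tumour line, day and sort, and no mouse was treated. Whether a library is 1 mouse or a pool of mice is not given in the sources used here.

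A dividing T cell passes through an ordered programme. Late in G1, origins of replication are licensed by loading the MCM helicase, and E2F transcription factors switch on the genes for licensing, nucleotide supply and the replication fork. In S phase the genome is copied and histone mRNAs are made in bulk, so that new DNA can be packaged. In G2 and mitosis a second set of genes, for cyclins A and B, mitotic kinases, the spindle and the condensins, reaches its highest level. CD8 T cells divide in waves after antigen contact, and in tumours division occurs in cells that also express effector genes and inhibitory receptors.

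The promoters of 5 genes around which cluster 5 and cluster 3 differed or matched are shown: Ung, Cdca7 and Mcm2, 3 of the 4 genes with the largest margin of cluster 5 over every other cluster; Mcm5, at the same level in both; and Plk1, far lower in cluster 5. Each line holds the 250 bases before the gene's RefSeq start in the GRCm38.p6 build, on the gene's own strand, 5′ to 3′. The windows are chr5:114130185-114130434 (+) for Ung, chr2:72475969-72476218 (+) for Cdca7, chr6:88898781-88899030 (-) for Mcm2, chr8:75109259-75109508 (+) for Mcm5 and chr7:122159185-122159434 (+) for Plk1. Capitals mark matches on either strand to 1 of 4 E2F motifs (TTTCCCGC, TTTGGCGC, TTTCGCGC, TTTGCCGC), to the cell cycle homology element, or CHR (TTTGAA), or to the CCAAT box.
Ung: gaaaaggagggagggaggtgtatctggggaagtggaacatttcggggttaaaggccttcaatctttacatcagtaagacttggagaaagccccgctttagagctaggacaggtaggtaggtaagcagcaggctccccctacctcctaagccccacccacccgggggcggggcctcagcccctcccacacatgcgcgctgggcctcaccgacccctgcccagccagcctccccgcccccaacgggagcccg
Cdca7: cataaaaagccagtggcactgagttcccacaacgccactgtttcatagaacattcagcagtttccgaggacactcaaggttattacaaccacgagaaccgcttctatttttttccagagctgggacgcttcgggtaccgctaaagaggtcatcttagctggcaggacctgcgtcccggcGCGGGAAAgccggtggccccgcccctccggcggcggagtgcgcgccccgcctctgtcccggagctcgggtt
Mcm2: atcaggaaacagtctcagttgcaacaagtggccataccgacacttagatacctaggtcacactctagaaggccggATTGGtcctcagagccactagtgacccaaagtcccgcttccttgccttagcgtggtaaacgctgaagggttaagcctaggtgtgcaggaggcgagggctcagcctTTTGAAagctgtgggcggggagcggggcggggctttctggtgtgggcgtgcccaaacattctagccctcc
Mcm5: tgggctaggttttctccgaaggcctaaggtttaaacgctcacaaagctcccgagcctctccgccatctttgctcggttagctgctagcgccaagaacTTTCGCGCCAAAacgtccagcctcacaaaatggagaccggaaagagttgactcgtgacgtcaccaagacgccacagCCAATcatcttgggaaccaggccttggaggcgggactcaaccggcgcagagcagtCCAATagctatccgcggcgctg
Plk1: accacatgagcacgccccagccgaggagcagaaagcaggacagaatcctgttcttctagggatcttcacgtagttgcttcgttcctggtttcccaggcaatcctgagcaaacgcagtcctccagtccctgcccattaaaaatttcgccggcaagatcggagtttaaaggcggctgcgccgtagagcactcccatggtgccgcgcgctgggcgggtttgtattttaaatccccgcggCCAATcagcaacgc

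The Mcm5 window held a pair of E2F matches on opposite strands that overlap each other, 153 to 146 and 149 to 142 bases before the start, and CCAAT matches ending 73 and 18 bases before it. The Cdca7 window held 1 E2F match, 71 to 64 bases before the start on the other strand. The Mcm2 window held a CHR match 70 to 65 bases before the start and a CCAAT match, the Plk1 window 1 CCAAT match, and the Ung window none of these letters. E2F letters stood in 15.5% of the 84 promoters matched to 71 of 88 S phase genes (licensing, nucleotide, fork and chromatin replication lists). The S phase repair and histone lists were not part of that set. They stood in 5.56% of the 72 promoters of 67 of 80 G2 and mitosis genes, and in 1.86% of all 32851 promoters of the table. CHR letters stood in 11.9% of S phase promoters, 31.9% of G2 and mitosis promoters and 16.0% of all. Single lists varied: E2F letters stood in 35.3% of 17 licensing, 25% of 16 chromatin replication, 14.3% of 21 chromosome condensation, 7.69% of 26 fork and 4% of 25 nucleotide promoters. CHR letters stood in 23.5% of the licensing, 18.8% of the chromatin replication and 57.1% of the condensation promoters, and in 7.69% and 4% of the fork and nucleotide promoters. CCAAT stood in 54.8%, 68.1% and 33.8%. A match is a description of the letters and not a binding site, and none of the histone promoters was matched.

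Levels below are counts per 1000000 (CPM) of the unique molecular identifiers (UMIs) summed over a cluster's cells in 1 library, given as the lowest, median and highest of the 6 libraries. The sums of cluster 5 held 4423906 to 11247039 UMIs. A ratio of clusters is taken within a library as log2 of CPM + 1 and averaged over libraries with its SD, so it understates the ratio of low genes. Because the clusters were drawn on the expression of these same cells, ratios between clusters are described without a test. A gene is counted as higher or lower only where the ratio was at least 2-fold the same way in all 6 libraries, among genes averaging at least 10 CPM in either cluster. List members below 10 CPM in both clusters could not be counted either way. Cells of cluster 5 had a median of 18351 UMIs and 3887 genes, against 23987.5 UMIs in cluster 3, 9163 in cluster 0 and 13987 in cluster 8. Their median mitochondrial share was 4.16%. Under more than 1 library number stood 84 cell barcodes, carried by 169 cells, 14 of them in cluster 5; without them, the counts of higher and lower genes differed by at most 3.

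The cells matched the sort. Cd3e, a chain of the T cell receptor complex, stood at 264, 303 and 341 CPM, and the co-receptor chains Cd8a and Cd8b1 at 587, 674 and 711 and at 645, 701 and 746. Cd4 stood at 0, 0.166 and 0.904 CPM. Single markers of other cell types were near 0: the B cell gene Cd79a at 0, 0.239 and 0.543 CPM, the macrophage receptor Csf1r at 0, 0.12 and 0.678, the collagen gene Col1a1 at 0, 0.117 and 0.451, and the NK cell receptor Ncr1 at 0, 0.0630 and 0.996. Over whole lists, the summed level was 3.01 to 7.17 CPM for 3 B cell genes, 251 to 298 for 16 myeloid genes, 2.30 to 11.1 for 8 epithelial genes, 34.7 to 55.8 for 7 genes of CD4 and regulatory T cells and 0.301 to 0.815 for 3 of 11 γδ T cell genes present in the table. The 14 genes of the NK and innate-like list, which includes Gzma, summed to 805 to 2654 CPM in cluster 5 and 1552 to 3340 in cluster 2.

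Of the 4 genes that name the cluster, all were far above clusters 0 and 8, but they split beside cluster 3. Mcm5, a subunit of the MCM helicase, stood at 168, 171 and 195 CPM in cluster 5, 165, 168 and 188 in cluster 3, and 18.3, 20.9 and 24.9 in clusters 0 and 8. Cluster 5 and cluster 3 overlapped for it (log2 ratio 0.02 ± 0.035, SD, n = 6 libraries, as for all ratios of clusters). Pcna, the sliding clamp of the replication fork, stood at 174, 214 and 271 CPM in cluster 5, 228, 281 and 347 in cluster 3, and 61.5, 72.3 and 89.5 in clusters 0 and 8; its ratio to cluster 3 was -0.40 ± 0.057, again with overlapping libraries.

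The other two were clearly lower in cluster 5 than in cluster 3. Tyms, which makes thymidylate for DNA, stood at 71.2, 79.2 and 91.0 CPM in cluster 5, 155, 169 and 189 in cluster 3, and 11.4, 13.6 and 14.5 in clusters 0 and 8. Its log2 ratio to cluster 3 was -1.09 ± 0.078, with no overlap, although not 2-fold in every library. Rrm2, the S phase subunit of ribonucleotide reductase, stood at 58.0, 77.8 and 84.7 CPM in cluster 5, 255, 291 and 324 in cluster 3, and 4.11, 4.76 and 6.42 in clusters 0 and 8. It was lower than in cluster 3 by the rule (-1.96 ± 0.153) and 12.8-fold above clusters 0 and 8 (3.68 ± 0.249).

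**Figure D1:**
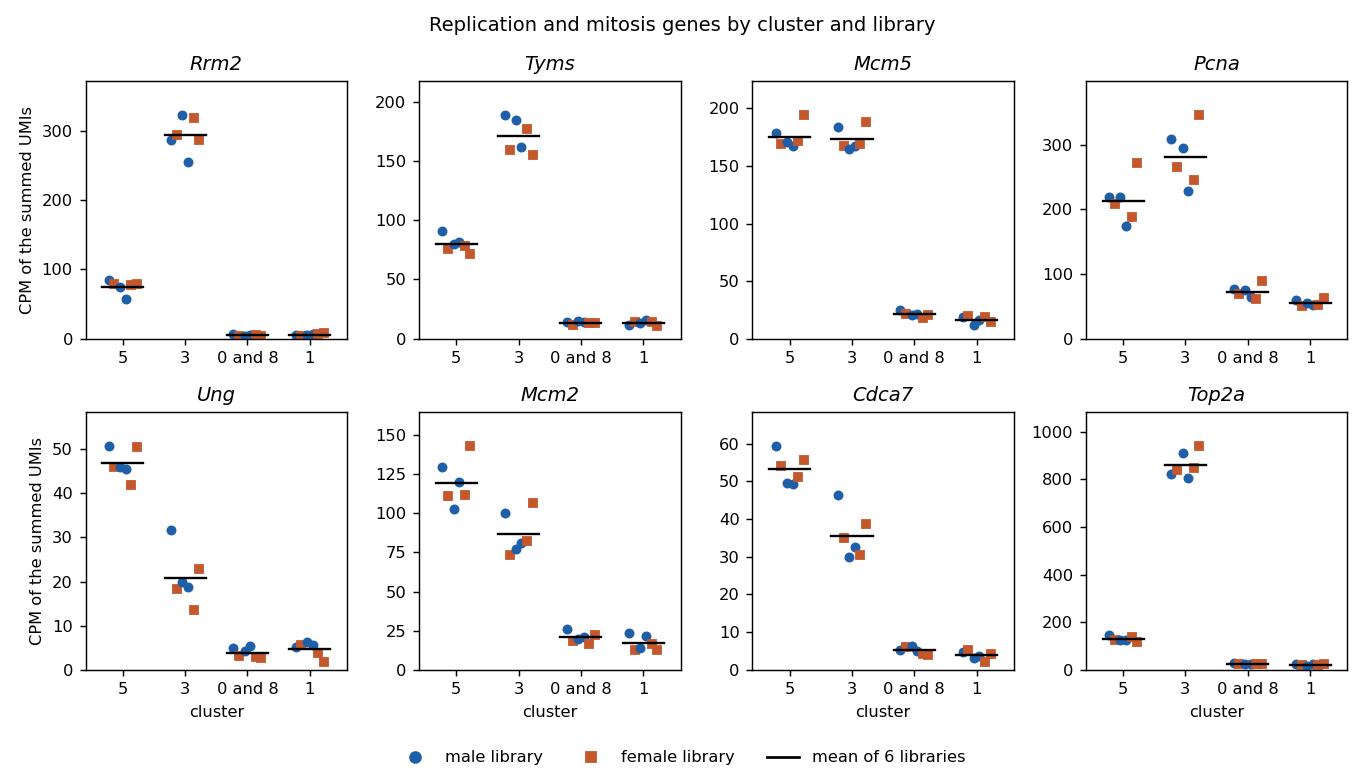
Levels of 8 replication and mitosis genes (y axes, CPM on linear axes from 0) in clusters 5, 3, 0 and 8 summed, and 1 (x axes), with a circle per male library, a square per female library and a line at the mean of 6 libraries. Mcm5 lies at 168 to 195 CPM in cluster 5 and 165 to 188 in cluster 3, whereas Rrm2 lies at 58.0 to 84.7 in cluster 5 and 255 to 324 in cluster 3, and Ung is highest in cluster 5.

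Across all genes, cluster 5 had nothing 2-fold above cluster 3 in every library (0 of 7393 genes, 0%), and 181 genes below it (2.45%). Of the 181, 102 belonged to the 10 cell cycle lists and 79 did not. Beside clusters 0 and 8, 276 of 7382 genes were higher in cluster 5 (3.74%), 150 of them in the cell cycle lists, and 4 were lower (0.0542%). The ratios of cluster 5 and of cluster 3 to clusters 0 and 8 share the cells of clusters 0 and 8, so the values for both are set side by side only; for cluster 3 the counts were 545 higher (7.21%) and 27 lower (0.357%) of 7556 genes. The median ratio over all genes was 0.004 to cluster 3 and -0.004 to clusters 0 and 8.

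Among origin licensing genes, most subunits of the MCM helicase matched or slightly passed their level in cluster 3. Of 21 measured, 18 were higher than in clusters 0 and 8, and 1 was lower than in cluster 3; the list's median log2 ratio was -0.26 to cluster 3 and 2.48 to clusters 0 and 8. Mcm2 stood at 103, 116 and 143 CPM in cluster 5, 73.6, 81.8 and 106 in cluster 3, and 16.6, 20.4 and 25.9 in clusters 0 and 8. Its ratio to cluster 3 was positive in all 6 libraries (0.46 ± 0.086), although the libraries' ranges just overlapped. Mcm4 stood at 102, 105 and 108 CPM in cluster 5 and 85.3, 90.5 and 94.9 in cluster 3, and Mcm6 at 185, 190 and 199 against 155, 164 and 173, both without overlap (0.23 ± 0.065 and 0.23 ± 0.062). Mcm3 had a ratio of 0.25 ± 0.105, and Mcm7 one of -0.26.

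Other members of the same list stood lower. Cdc6, which loads the helicase, had a ratio of -0.44 to cluster 3 and 3.89 to clusters 0 and 8, and Gins2, a subunit of the active helicase, -0.05 and 2.86. Cdc45, its partner in the active helicase, had -0.95 and 3.59, and Mcm10 -1.04 and 3.65. The lowest ratio of the list, -1.54, was that of Ticrr, which helps origins fire and was the member lower than in cluster 3 by the rule; its ratio to clusters 0 and 8 was 1.84.

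Ung, uracil-DNA glycosylase, which removes uracil from DNA, was the gene with the largest margin of cluster 5 over every other cluster. It stood at 41.8, 46.0 and 50.8 CPM in cluster 5, 13.6, 19.3 and 31.8 in cluster 3, and 2.74, 3.63 and 5.29 in clusters 0 and 8. Its ratio to cluster 3 was 1.17 ± 0.293 with no overlap, at least 2-fold in 5 of 6 libraries and 0.66 in male library 1. After thinning of every cell to 4000 UMIs, a UMI of Ung was found in 15.9% of cluster 5 cells, 6.83% of cluster 3 cells, 1.79% of cluster 0 cells and 1.20% of cluster 8 cells. Before thinning the shares were 46.8%, 24.7%, 3.72% and 4.84%.

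The named genes of nucleotide supply sat below cluster 3. Of 23 genes, 15 were higher than in clusters 0 and 8 and 1 was lower than in cluster 3 (median ratios 1.44 and -0.26). Rrm1, the large subunit of ribonucleotide reductase, had a ratio of -0.86 to cluster 3 and 2.55 to clusters 0 and 8, and the thymidine kinase Tk1 -0.91 and 2.70. Within ribonucleotide reductase, the S phase subunit Rrm2 was further below cluster 3 than Rrm1.

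Replication fork genes followed the same pattern. Of 28 measured, 23 were higher than in clusters 0 and 8 and 2 lower than in cluster 3, with median ratios of 2.08 and -0.37. The PCNA-associated factor Pclaf, listed here as 2810417H13Rik, stood at 194, 221 and 233 CPM in cluster 5, 686, 740 and 749 in cluster 3, and 6.73, 10.3 and 13.2 in clusters 0 and 8. It had the largest ratio of cluster 5 to clusters 0 and 8 of the genes described here (4.34, 20.3-fold), and yet was lower than in cluster 3 by the rule (-1.73). Clspn, an adaptor of the replication checkpoint, was also lower than in cluster 3, at 58.7, 68.2 and 77.5 CPM against 134, 151.1 and 166 (-1.14 ± 0.106).

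Genes that restore chromatin behind the fork were all higher than in clusters 0 and 8 by the rule, 14 of 14 (median 1.66), and 1 was lower than in cluster 3 (median -0.49). Hells, a chromatin remodeller, was level with cluster 3 at 123, 133 and 156 CPM against 120, 133 and 149. Uhrf1, which guides DNA methylation to new strands, was below it without overlap (-0.65), and Asf1b, a histone chaperone, was lower by the rule (-1.37). Of 20 repair genes of S phase, 15 reached 10 CPM beside clusters 0 and 8, and 12 of them were higher. Beside cluster 3, 19 reached it and 4 of them were lower (medians over all 20 of 2.35 and -0.85). Among the repair genes, the checkpoint kinase gene Chek1 was level with cluster 3 (0.04).

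Of the 22 regulators of the G1 to S step, 19 reached 10 CPM beside clusters 0 and 8, and 8 of them were higher. Beside cluster 3, 20 reached it and 3 of them were lower (medians over all 22 of 0.28 and -0.30). E2f1, the transcription factor, was level between the cycling clusters at 26.9, 29.9 and 35.04 CPM in cluster 5 and 24.9, 28.2 and 38.6 in cluster 3, against 1.53, 1.83 and 2.34 in clusters 0 and 8. Cdca7, which acts in chromatin maintenance, was the second gene by margin over all other clusters, at 49.4, 52.7 and 59.5 CPM in cluster 5, 29.9, 33.7 and 46.3 in cluster 3, and 4.03, 5.15 and 6.26 in clusters 0 and 8. It was above cluster 3 in all 6 libraries without overlap, but by less than 2-fold (0.59 ± 0.140). Ccnd2, the D cyclin that couples growth signals to G1, stood at 247, 261 and 319 CPM in cluster 5, 124, 159 and 194 in cluster 3 and 281, 316 and 354 in clusters 0 and 8; here cluster 5 lay near the non-dividing cells, and clear of cluster 3 (0.77). The cyclin E genes Ccne1 and Ccne2 had ratios to cluster 3 of -0.64 and -0.38, and the CDK inhibitor Cdkn2c was lower than in cluster 3 (-2.11) and close to clusters 0 and 8 (0.33).

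Replication-dependent histones gave the first large separation from cluster 3. Beside cluster 3, 15 of 21 genes reached 10 CPM, and 12 of them were lower in cluster 5 and none higher. Beside clusters 0 and 8, 9 reached it and 4 of them were higher. Medians over all 21 were -1.76 and 0.83, against 2.78 for cluster 3 over clusters 0 and 8. The linker histone Hist1h1b stood at 14.2, 35.97 and 50.2 CPM in cluster 5, 288, 350 and 409 in cluster 3, and 2.59, 4.16 and 6.07 in clusters 0 and 8. Its ratio to cluster 3 was -3.39 ± 0.484. Hist1h2ap stood at 74.7, 107 and 148 CPM in cluster 5 and 747, 1138 and 1939 in cluster 3 (-3.43 ± 0.232). These mRNAs mostly lack poly(A) tails and their genes are near-identical copies, so poly(A)-primed counts of single members are uncertain.

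The G2 and mitosis genes separated most. Of 49 spindle and kinetochore genes, 46 were lower in cluster 5 than in cluster 3 (median -2.11). Beside clusters 0 and 8, 28 of the 34 that reached 10 CPM were nevertheless higher. The median over all 49 was 2.204 there, against 4.61 for cluster 3. Nusap1, which bundles spindle microtubules, had the lowest ratio to cluster 3 of the genes described here. It stood at 7.23, 13.4 and 15.6 CPM in cluster 5, 170, 196 and 203 in cluster 3, and 1.16, 1.67 and 2.90 in clusters 0 and 8 (-3.89 ± 0.476). The kinetochore protein Cenpf stood at 20.8, 23.6 and 34.9 CPM in cluster 5, 233, 277 and 318 in cluster 3 and 2.19, 3.29 and 4.08 in clusters 0 and 8. Prc1, which organises the midzone of the spindle, and the kinesin motor Kif11 had ratios to cluster 3 of -3.38 and -3.18.

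Of 28 cyclins and kinases of G2 and mitosis, 21 were lower than in cluster 3. Beside clusters 0 and 8, 13 of the 18 that reached 10 CPM were higher (medians over all 28 of -2.08 and 2.09). Cdk1, the mitotic kinase, stood at 34.6, 39.9 and 43.9 CPM in cluster 5, 205, 247 and 265 in cluster 3, and 3.15, 3.65 and 4.84 in clusters 0 and 8. Its partner Ccna2 stood at 25.3, 29.3 and 34.1 CPM in cluster 5 and 172, 189 and 216 in cluster 3, and Ccnb1 at 16.5, 20.8 and 27.8 against 82.4, 100.8 and 108. Plk1, whose promoter is shown above, stood at 4.51, 6.06 and 8.17 CPM in cluster 5, 54.9, 64.2 and 68.7 in cluster 3, and 0.350, 0.473 and 1.29 in clusters 0 and 8.

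The group was not uniform. Ccnb2, the second B cyclin, stood at 62.6, 72.5 and 94.5 CPM in cluster 5, 107, 120 and 136 in cluster 3, and 3.15, 5.54 and 8.29 in clusters 0 and 8; its ratio to cluster 3 was -0.66 ± 0.256, far from the -2.12 ± 0.320 of Ccnb1. Cdc20, an activator of the anaphase-promoting complex, stood at 23.3, 31.5 and 39.98 CPM in cluster 5 against 74.3, 84.2 and 96.7 in cluster 3 (-1.41 ± 0.349). Ratios to clusters 0 and 8 of both were high, at 3.54 for Ccnb2 and 3.42 for Cdc20.

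Chromosome condensation genes lay between, with 11 of 23 lower than in cluster 3 and 15 higher than in clusters 0 and 8 (medians -1.10 and 1.56). Top2a, which untangles sister DNA, stood at 117, 126 and 147 CPM in cluster 5, 807, 844 and 941 in cluster 3 and 24.3, 24.9 and 29.7 in clusters 0 and 8. Mki67, the usual marker of dividing cells, stood at 118, 124 and 159 CPM in cluster 5, 571, 590 and 706 in cluster 3, and 14.7, 18.2 and 22.04 in clusters 0 and 8. A cell sum can mix dividing and resting cells, so these levels do not show whether each cell of cluster 5 has less mRNA or fewer cells have any.

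**Figure D2:**
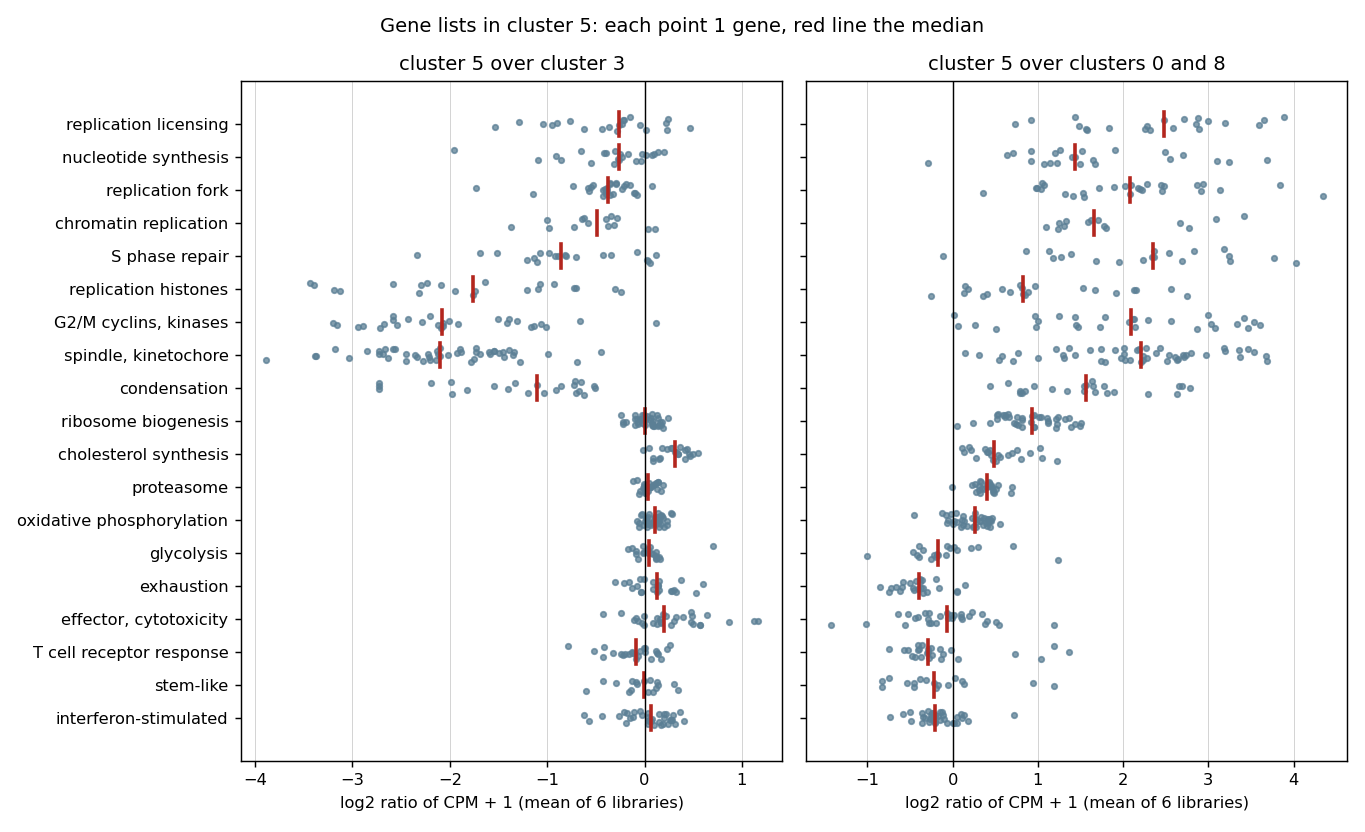
Mean log2 ratio of CPM + 1 over 6 libraries (x axes) for the genes of 19 lists (rows), cluster 5 over cluster 3 on the left and over clusters 0 and 8 on the right, with 1 point per gene and a red line at each list's median. Licensing, nucleotide and fork lists have medians of -0.26, -0.26 and -0.37 beside cluster 3, and the cyclin and spindle lists -2.08 and -2.11.

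Single cells were compared after thinning each to 4000 UMIs, which left out 38 of the cluster 5 cells and kept 2278. The S phase lists (licensing, nucleotides, fork, chromatin replication) gave a median of 27 UMIs per cell in cluster 5, with 5th and 95th percentiles of 9 and 54, against 40 (16 and 68) in cluster 3 and 9 in both cluster 0 and cluster 8. The G2 and mitosis lists gave 12 UMIs (4 and 38) in cluster 5, 48 (19 and 102.2) in cluster 3 and 5 in both cluster 0 and cluster 8. Histones gave 1 UMI in cluster 5, 8 in cluster 3 and 0 in both others. Library medians in cluster 5 were narrow, at 26 to 29 UMIs for the S phase lists and 12 to 13 for G2 and mitosis.

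Set against the 95th percentile of the cells of clusters 0 and 8 (17 UMIs of the S phase lists and 10 of the G2 and mitosis lists), 35.03% of cluster 5 cells exceeded the S phase limit alone, and libraries ran from 32.0% to 39.5%. Both limits were exceeded by 43.9% (41.1% to 48.5%), the G2 and mitosis limit alone by 14.4%, and neither by 6.63%. In cluster 3 the same shares were 0.414%, 93.6%, 5.92% and 0.0827%. Neither limit was exceeded by 93.3% of cluster 0 cells and 89.2% of cluster 8 cells. The limits are cuts in a continuous range, and with 2000 UMIs per cell the 4 shares in cluster 5 were 39.6%, 33.1%, 14.8% and 12.6%.

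The share of cells with a UMI of a gene separated the clusters in the same way at equal depth. Mcm5 was found in 47.3% of thinned cluster 5 cells and 48.0% of cluster 3 cells, against 6.03% of cluster 0 cells. Mki67 was found in 33.5% of cluster 5 cells, 87.7% of cluster 3 cells, 6.16% of cluster 0 cells and 7.22% of cluster 8 cells. Rrm2 was found in 18.2% of cluster 5 cells and 60.1% of cluster 3 cells, and Cdk1 in 11.98% and 57.1%.

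**Figure D3:**
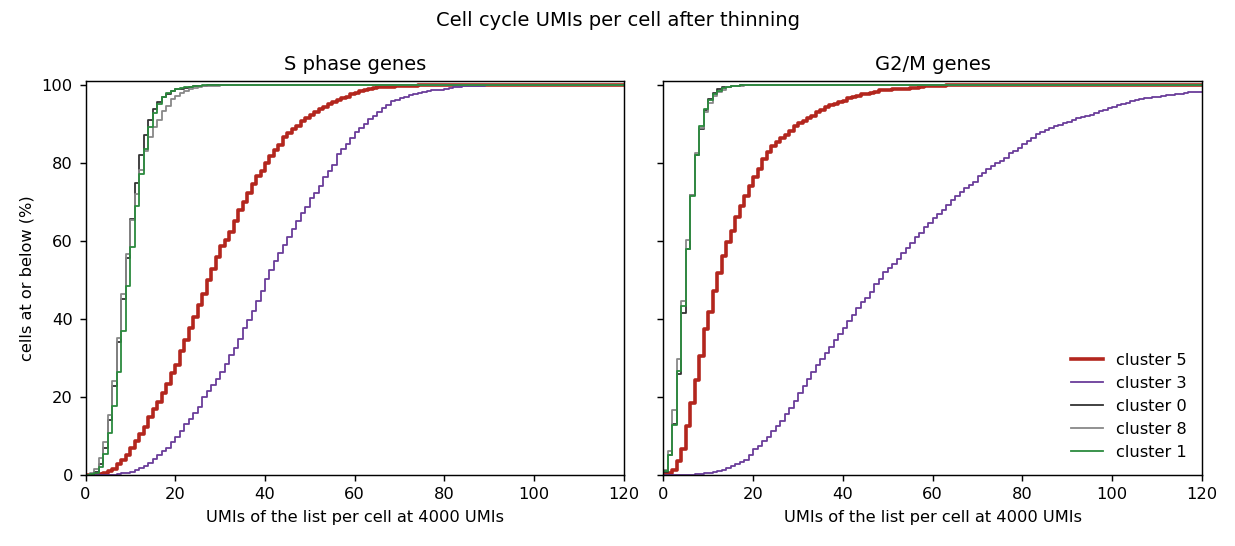
Share of cells (%) at or below a number of list UMIs per cell (x axis) after thinning to 4000 UMIs, for the S phase lists (left) and the G2 and mitosis lists (right), with 1 line each for clusters 5, 3, 0, 8 and 1. For G2 and mitosis, cluster 5 (median 12 UMIs) lies nearer to clusters 0 and 8 (5) than to cluster 3 (48); for the S phase lists (27) it lies between cluster 3 (40) and clusters 0 and 8 (9).

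Outside the cell cycle, the clusters nearest to cluster 5 in T cell state were cluster 3 and then clusters 8 and 0. Over the genes of 7 state lists (exhaustion, effector, stem-like, naive or central memory, T cell receptor response, interferon, residency) with at least 10 CPM, the median size of the log2 ratio, sign dropped, was 0.162 beside cluster 3 (113 genes), 0.335 beside cluster 8 and 0.467 beside cluster 0. It was 0.672 beside cluster 10, 0.680 beside cluster 4, 0.828 beside cluster 1 and 1.002 beside cluster 6. Beside cluster 9 it was 1.10, beside cluster 2 1.49 and beside cluster 7 1.84. Over all genes the same measure was 0.122 beside cluster 3, 0.214 beside cluster 8 and 0.267 beside cluster 0. For clusters 10 and 6, whose cells had few UMIs, it was 0.687 and 0.860 over all genes. The part of depth in the measure was not tested. By the 2-fold rule, cluster 5 had 241 genes higher (3.29%) and 8 lower (0.109%) than cluster 8, and 292 higher (3.93%) and 17 lower (0.229%) than cluster 0. It had 588 higher (7.67%) and 356 lower (4.64%) than cluster 2, whose cells carry innate-like genes, and 525 higher (6.99%) and 201 lower (2.68%) than cluster 7, with naive or central memory genes. The counts were 318 (4.23%) and 226 (3.01%) beside cluster 9, 390 (5.01%) and 207 (2.66%) beside cluster 10, and 1061 (13.7%) and 508 (6.58%) beside cluster 6, where the median cell had 1742 UMIs and a mitochondrial share of 30.03%.

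Beside cluster 3, 0 of the 22 exhaustion genes and 0 of the 29 effector genes with at least 10 CPM were higher or lower by the rule. Over all genes the shares were 0% higher and 2.45% lower, and no call in lists of this size is near that background.

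Several inhibitory receptor genes in cluster 5 had median levels between those of cluster 3 and of clusters 0 and 8. Pdcd1, which encodes PD-1, stood at 268, 373 and 445 CPM in cluster 5, 199, 285 and 347 in cluster 3, and 375, 500 and 589 in clusters 0 and 8. Its ratio was 0.38 to cluster 3 and -0.43 to clusters 0 and 8, with ranges that overlapped in both. Havcr2 (TIM-3) stood at 263, 318 and 339 CPM in cluster 5, 201, 262 and 289 in cluster 3 and 388, 429 and 492 in clusters 0 and 8, below the last without overlap. Lag3 had ratios of 0.30 and -0.74, and the chemokine receptor Cxcr6 0.60 and -0.72. Tigit went below both, at 1.58, 3.16 and 6.46 CPM in cluster 5, 3.20, 3.50 and 5.14 in cluster 3 and 5.32, 6.46 and 8.92 in clusters 0 and 8 (-0.21 ± 0.553 and -0.85 ± 0.290), with overlapping libraries in both.

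The exhaustion list had a median of 0.13 beside cluster 3, where 15 of 24 genes were above 0, and -0.39 beside clusters 0 and 8, where 3 of 24 genes were above 0. The CD8 T cell identity genes did likewise: their medians were 0.21 and -0.39, and Cd8a itself stood at 782, 881 and 946 CPM in clusters 0 and 8. CPM is relative to a cell's total UMIs, which were higher in cluster 5 than in clusters 0 and 8; the part of this in the ratios was not tested.

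**Figure D4:**
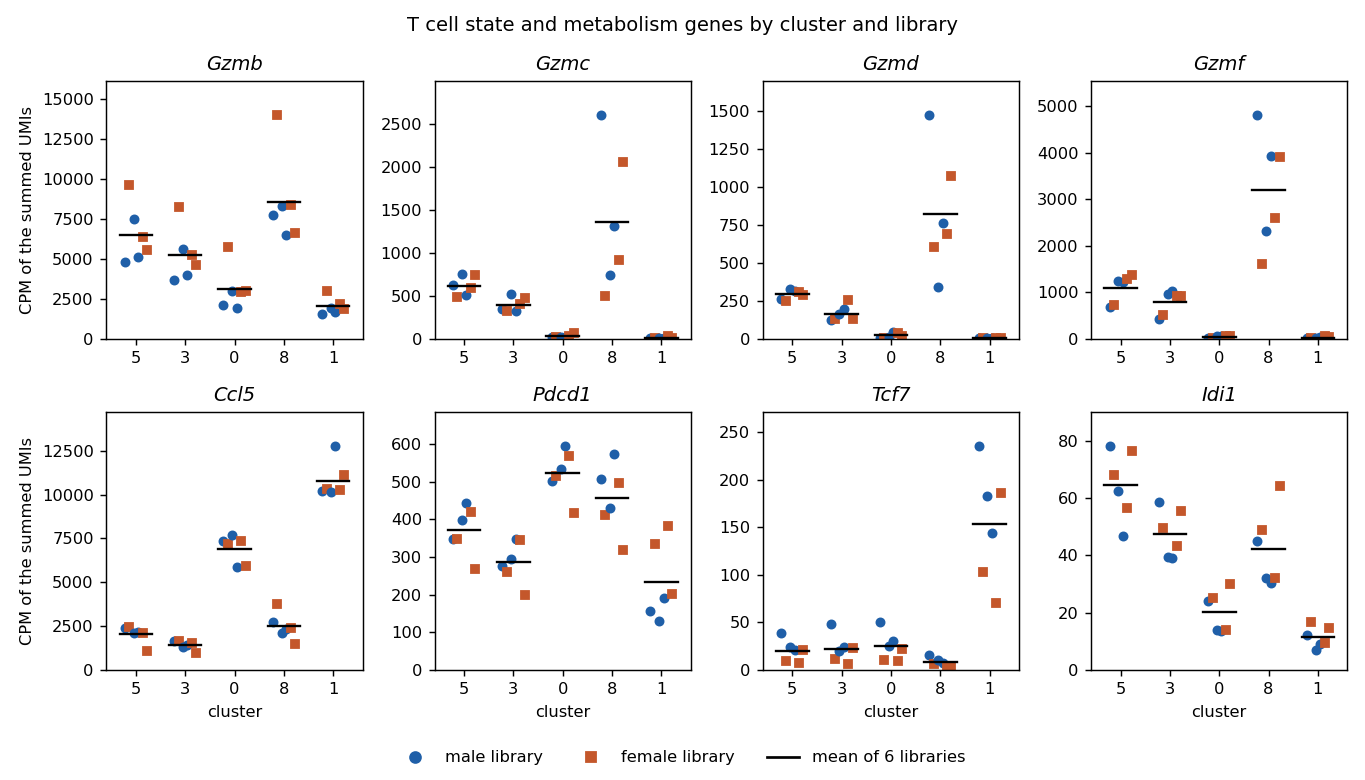
Levels of 8 T cell state and metabolism genes (y axes, CPM on linear axes from 0) in clusters 5, 3, 0, 8 and 1 (x axes), with a circle per male library, a square per female library and a line at the mean of 6 libraries. Gzmf in cluster 5 (677 to 1364 CPM) lies above cluster 0 (9.03 to 65.5) and below cluster 8 (1601 to 4816).

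Granzymes, the serine proteases that killer T cells deliver to their targets, told clusters 0 and 8 apart and placed cluster 5 between them. Gzmb stood at 4801, 5975 and 9593 CPM in cluster 5, 3688, 4932 and 8251 in cluster 3, 1948, 2952 and 5735 in cluster 0, and 6468, 8020 and 14028 in cluster 8. Gzmf stood at 677, 1225 and 1364 CPM in cluster 5, 424, 920 and 1018 in cluster 3, 9.03, 48.2 and 65.5 in cluster 0, and 1601, 3251 and 4816 in cluster 8. The ratio of cluster 5 to cluster 0 was 4.96 for Gzmf and 4.48 for Gzmc, and to cluster 8 -1.52 and -0.93.

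A UMI of Gzmb was found in most cells of every one of these clusters after thinning, with 94.8% in cluster 5, 93.5% in cluster 3, 86.6% in cluster 0 and 98.98% in cluster 8. Gzmc and Gzmf were found in fewer cells. A UMI of Gzmc was found in 25.2% of thinned cluster 5 cells, 24.2% of cluster 3 cells, 5.25% of cluster 0 cells and 42.9% of cluster 8 cells. A UMI of Gzmf was found in 22.1% of thinned cluster 5 cells, 19.4% of cluster 3 cells, 6.46% of cluster 0 cells and 45.9% of cluster 8 cells. For the 5 granzymes Gzmc to Gzmg together, the median cluster 5 cell had 0 UMIs and the 95th percentile 38.2, against 0 and 24 in cluster 3, 0 and 1 in cluster 0, and 2 and 98 in cluster 8. Gzme, at 159, 203 and 239 CPM in cluster 5 and 50.7, 97.7 and 131 in cluster 3, stood above cluster 3 without overlap (1.16), whereas Gzmb, Gzmc, Gzmd, Gzmf and Gzmg overlapped. Gzmc to Gzmg are neighbouring, closely related genes, so reads may be shared between them.

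The 4 genes lower in cluster 5 than in clusters 0 and 8 were Kdm5b, Ccl5, Tcp11l2 and St6galnac3. Kdm5b, a histone H3K4 demethylase, stood at 15.6, 23.0 and 27.0 CPM in cluster 5, 10.7, 13.9 and 14.7 in cluster 3, and 64.8, 69.5 and 76.1 in clusters 0 and 8 (-1.60). Ccl5, a chemokine that attracts T cells and monocytes, stood at 1045, 2128 and 2442 CPM in cluster 5, 970, 1470 and 1650 in cluster 3 and 4056, 5494 and 6190 in clusters 0 and 8 (-1.43). Beside cluster 8 alone, at 1493, 2382 and 3764 CPM, the ratio of Ccl5 was only -0.28. Tcp11l2 and St6galnac3 had ratios of -1.36 and -1.29, and for all 4 genes cluster 3 was lower than clusters 0 and 8 as well (-1.45 for St6galnac3 to -2.39 for Tcp11l2).

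Beside cluster 1, 2 of 14 stem-like genes with at least 10 CPM were lower in cluster 5 and none higher, and 5 of 12 naive or central memory genes were lower and none higher. Over all genes the counts beside cluster 1 were 356 higher (4.68%) and 225 lower (2.96%) of 7603. List medians were -0.96, with 3 of 17 stem-like genes above 0, and -1.16, with 0 of 14 naive or central memory genes above 0. Tcf7, the transcription factor of stem-like T cells, stood at 7.61, 20.8 and 38.6 CPM in cluster 5 and 6.61, 21.8 and 48.2 in cluster 3, against 69.8, 163 and 236 in cluster 1. Slamf6, a receptor of the same cells, stood at 26.0, 31.8 and 47.2 CPM in cluster 5 and 108, 125 and 130 in cluster 1, without overlap. The egress genes S1pr1 and Klf2 had medians of 11.04 and 105 CPM in cluster 5, against 166 and 668 in cluster 1. Il2, a growth factor of T cells, was far below cluster 4 (-5.12), beside which 280 genes were higher (3.79%) and 99 lower (1.34%) of 7391.

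Growth genes were shared by both cycling clusters. Myc, a transcription factor that drives growth, stood at 22.3, 25.6 and 31.3 CPM in cluster 5, 21.1, 26.8 and 33.9 in cluster 3, and 7.94, 9.96 and 11.02 in clusters 0 and 8, higher than the last by the rule (1.36). Of 38 ribosome biogenesis genes, 7 were higher than in clusters 0 and 8 by the rule and all 38 had a mean ratio above 0 (median 0.93); beside cluster 3 the median was 0.01. Nop58, of the nucleolar complex that modifies ribosomal RNA, stood at 136, 150 and 178 CPM in cluster 5, 145, 162 and 194 in cluster 3 and 48.8, 50.7 and 59.9 in clusters 0 and 8. Ribosomal protein genes had medians of 0.03 and 0.01, and glycolysis genes 0.04 and -0.18.

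In the cholesterol synthesis list 21 of 22 genes were above cluster 3, by small ratios (median 0.32, none past 2-fold in every library); all 22 were above clusters 0 and 8 (median 0.49). Idi1, an isomerase of the early pathway, stood at 46.8, 65.3 and 78.3 CPM in cluster 5, 39.2, 46.5 and 58.7 in cluster 3, and 18.8, 25.5 and 44.7 in clusters 0 and 8. Idi1, Fdps and Pmvk of this pathway were among the 15 genes with the largest margin over every other cluster, with smallest ratios of 0.43, 0.25 and 0.23. Ranges of Idi1 overlapped between the cycling clusters, and Fdps and Pmvk were nearest to cluster 8. Of the rest of the 15, Aacs, which makes acetoacetyl-CoA for lipid synthesis, had a smallest ratio of 0.51, the DNA repair enzyme gene Alkbh2 one of 0.36, and Pycrl, Wdr6, Mt3, Ripk3 and Dtd2 0.24 to 0.36. Oxidative phosphorylation genes were above 0 beside cluster 3 in 34 of 40 cases (median 0.11), and proteasome genes above clusters 0 and 8 in 24 of 25 (median 0.41).

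Sex was compared with edgeR's quasi-likelihood test on library sums of cluster 5, fold changes being male over female. The labels were first checked on sex-linked genes. Xist, the non-coding RNA of the inactive X, stood at 0, 0 and 0.0889 CPM in males and 565, 622 and 592 in females, and the Y-linked genes Eif2s3y, Ddx3y, Uty and Kdm5d had UMIs in all male libraries and none in female ones. Of 10212 genes tested, 10 passed an adjusted p of 0.05 (0.0979%), 5 higher (0.049%) and 5 lower (0.049%) in males. Of these, 8 were sex-linked: the 4 Y-linked genes were higher in males, and Xist, Tsix, Kdm6a and Eif2s3x were lower. With no adjustment, 407 genes (3.99%) had p under 0.05. Libraries are not tied to separate mice in the labels, so p-values measure the spread between these libraries.

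Ifitm1, an interferon-induced membrane protein, was lower in males, at 759, 875 and 710 CPM in male libraries and 1096, 1203 and 1478 in female libraries. The groups did not overlap; the means were 781 ± 85.1 and 1259 ± 197 (SD, n = 3 each), a log2 fold change of -0.70 (SE 0.111, edgeR adjusted p 0.0128). Before thinning, a UMI of Ifitm1 was found in 37.0%, 53.1% and 46.0% of male cells and 54.7%, 67.0% and 62.3% of female cells, without overlap. Median UMIs per cell in these libraries were 17435, 21684 and 16329.5 in males and 21253, 18928 and 21044.5 in females. The part of depth in the shares was not tested. The call was lost without male library 1 (adjusted p 0.0918) or male library 4 (0.159), and without female library 5 (0.0542) or female library 6 (0.0537).

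Klra1, a killer lectin-like receptor of NK cells and innate-like T cells, was the other call. It stood at 4.90, 2.71 and 4.18 CPM in male libraries and 0.861, 0.453 and 1.36 in female libraries, a log2 fold change of 2.31 (SE 0.395, edgeR adjusted p 0.0233). The signal came from few cells, 13, 6 and 16 in males and 2, 1 and 2 in females, with up to 14 UMIs in 1 male cell. Klra1 is a gene of cluster 2, where 25.7% to 29.5% of cells had a UMI, and cluster 2 made up 1204, 503 and 752 cells of the male libraries and 208, 218 and 241 of the female ones; the part of these cells or their free RNA was not tested. Over all 14 genes of the NK and innate-like list, the summed level was 805 to 1222 CPM in males and 2031 to 2654 in females, and Ncr1 was near 0. Of 11 of these genes tested, 5 were higher and 6 lower in males. The related receptor gene Klra7 was on the male side without overlap, but did not pass (edgeR adjusted p 0.261). It stood at 11.1, 13.4 and 19.1 CPM in male libraries and 7.46, 3.89 and 6.56 in female libraries. The Klra1 call was lost without male library 1 (0.133), male library 4 (0.186) or female library 5 (0.270).

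Most of that sum was Gzma, granzyme A, at 844, 906 and 524 CPM in male libraries and 2338, 1710 and 1719 in female libraries. Its groups did not overlap, but it did not pass (log2 fold change -1.37, SE 0.271, unadjusted p 0.00353, edgeR adjusted p 0.694). The serpin Serpina3g stood at 96.8, 78.1 and 91.8 CPM in males and 52.0, 57.8 and 71.0 in females, also without overlap or a call (0.56, edgeR adjusted p 0.0768). In all, male libraries lay entirely above female ones for 601 genes (5.89%) and entirely below for 279 (2.73%).

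None of 244 list entries of cell cycle genes tested was called between the sexes, where 0.0979% of all genes were, so the count is near the background. The naming genes had log2 fold changes of -0.14 for Rrm2, 0.13 for Tyms, -0.07 for Mcm5 and -0.14 for Pcna, and Ung one of 0.03, all with an edgeR adjusted p of 0.998. List medians were between -0.04 and 0.01 for the S phase and mitotic lists and -0.12 for the histones. Of 17 histones tested, 14 were lower in males, against 5139 of all 10212 genes. Outside the cell cycle, the naive or central memory list had a median of 0.52, with 7 of 12 genes tested higher in males and none called. Male libraries lay entirely above female ones for 5 of the 12 and entirely below for 1, against 5.89% and 2.73% of all genes.

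**Figure D5:**
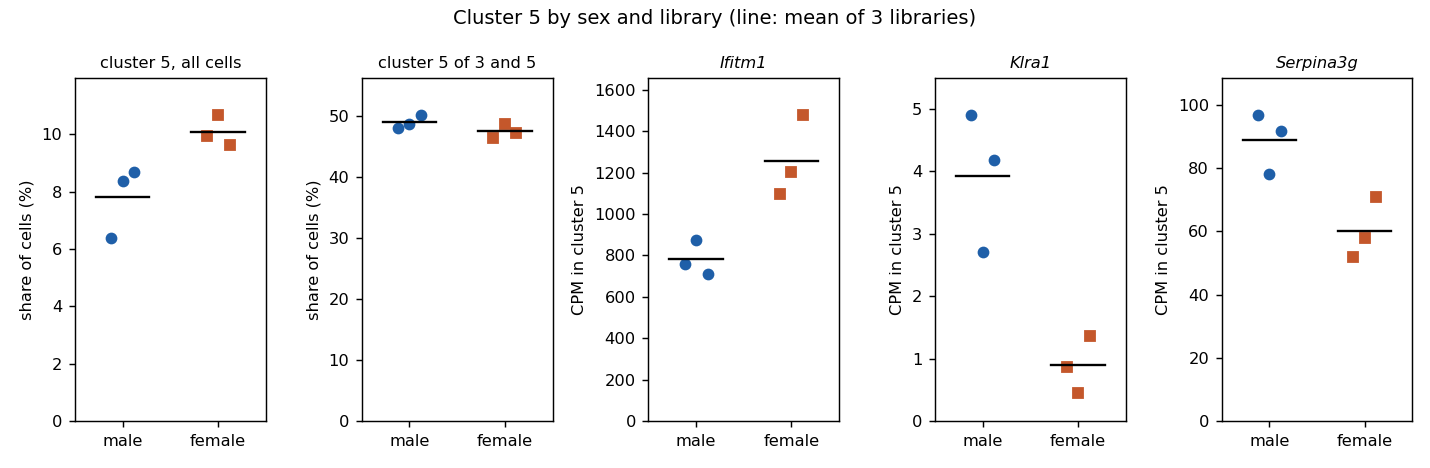
Values by library in males (left in each panel) and females (right): cluster 5 as a share of all cells and of both cycling clusters (%), and the levels of Ifitm1, Klra1 and Serpina3g in cluster 5 (CPM), with 1 point per library and a line at the mean of 3. Ifitm1 lies at 710 to 875 CPM in males and 1096 to 1478 in females.

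Cluster 5 made up 6.39%, 8.38% and 8.66% of the cells of the male libraries and 9.92%, 10.7% and 9.62% of those of the female libraries. Every male share was below every female share, with means of 7.81 ± 1.24% and 10.1 ± 0.538% (SD, n = 3 each), but the difference did not pass (edgeR log2 ratio -0.37, SE 0.213, adjusted p 0.125 over 11 clusters; exact two-sided permutation p 0.10, the smallest that 3 against 3 allows). Cluster 5 as a share of both cycling clusters was 48.0%, 48.7% and 50.1% in males and 46.4%, 48.7% and 47.2% in females, with overlapping libraries (48.9 ± 1.07% and 47.4 ± 1.18%, exact two-sided permutation p 0.30).

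Whether a sex difference had another size in cluster 5 than elsewhere was tested as an interaction in edgeR, with the library as a block. Beside cluster 3, 6 of 10937 genes passed (0.0549%), and 611 (5.59%) had an unadjusted p under 0.05. Beside clusters 0 and 8, 1 of 11091 passed (0.00902%), and 528 (4.76%) had an unadjusted p under 0.05. Ifitm1 and Klra1 passed in neither comparison (edgeR adjusted p beside cluster 3 of 0.804 and 0.997). The log2 fold change of Ifitm1 was -0.70 in cluster 5, -0.86 in cluster 3 and -0.57 in clusters 0 and 8 summed. In cluster 0 alone, Ifitm1 stood at 270, 386 and 333 CPM in males and 658, 808 and 662 in females. In cluster 8 alone the sexes overlapped, at 3260, 2192 and 1501 CPM in males and 1918, 2143 and 3691 in females. No cell cycle gene passed beside cluster 3 or beside clusters 0 and 8. With 0.0549% and 0.00902% of all genes passing, that count is near the background. Among cell cycle genes, Atad2 had the lowest p beside clusters 0 and 8 (interaction -0.42, edgeR adjusted p 0.153). Its log2 fold change was -0.15 in cluster 5 and 0.26 in clusters 0 and 8, and it passed in 1 of 10 alternatives.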

How the data were processed

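Cells were sequenced with the Chromium 3' version 3 chemistry, per the labels' protocols. Cell Ranger and Seurat and the mm10 build are named in the submitters' processing notes, with no version or setting. The deposited table holds raw UMI counts per gene and cell (15601 genes, 423 of them with no count in these cells), with the authors' cluster number and sex per cell in a deposited cell table. The library is the number that ends a cell's name. Which numbered replicate a library is, and whether doublets were removed, is not given in the sources used here; no doublet caller was run.

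Counts were summed per cluster and library and scaled to counts per 1000000 (CPM). Cluster ratios were log2 of CPM with a pseudocount of 1, within a library. Sex and interaction tests used edgeR 4.0.16 (quasi-likelihood, TMM, low-count filter) in R 4.3.3. Benjamini-Hochberg adjustment ran over all genes tested, with a threshold of 0.05. In simulated data, the sex test recovered 86.5% of 96 genes changed by 1 log2 and 99.0% of 98 changed by 2 log2. False calls numbered 12 over all genes of that run. The interaction beside cluster 3 recovered 87.9% of 99 and 96% of 100 such genes, with 13 false calls over the run. Beside clusters 0 and 8 it recovered 79.2% of 96 and 95% of 100, with 19 false calls over the run. Apart from the set changes, simulated libraries and clusters differed only in depth. Interaction fits had the library as a block. Alternatives were DESeq2 1.42.0, limma-voom 3.58.1, DESeq2 size factors, no low-count filter, other pseudocounts, folds and minimum levels, filtered or thinned cells, and leaving out each library. Filtered or thinned cells were not used for the interaction tests. Counting error is the only error that depth describes: sums held 4423906 to 11247039 UMIs, and 38 cluster 5 cells had under 4000.

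The members and gene lists were chosen with earlier results of these data known. Genes were named by rule: the cluster's 4 marker genes, the 15 with the largest margin over every other cluster, up to 10 each way beside cluster 3 and beside clusters 0 and 8, up to 4 per list, and sex or interaction calls with the next 5 each way. Not every gene so named is described, and of the next 5 each way by sex only Serpina3g and Klra7 are. Other list members, Gzma in the sex comparison among them, were named as examples after their values were seen. Promoter sequences are from RefSeq (GRCm38.p6), matched by symbol, and gene names were found in GENCODE release 21 for 697 of 699 genes in the level table.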

Additional observations from a re-analysis of the deposited data

Results flagged for a closer look

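For 6 genes the sex difference in cluster 5 differed from that in cluster 3 by edgeR's interaction test. Of these, 4 encode the antigen-presenting MHC class II complex of myeloid cells and B cells or its chaperone. The interaction was -3.75 for H2-Eb1 (adjusted p 4.61e-06), -1.89 for Cd74 (adjusted p 2.17e-05), -2.87 for H2-Aa (adjusted p 0.00104) and -1.24 for H2-Ab1 (adjusted p 0.0174), all log2 and male over female.

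The difference lay in cluster 3. H2-Eb1 averaged 1.47 ± 0.926 CPM in males and 2.41 ± 1.36 in females in cluster 5 (SD, n = 3 each), and 7.08 ± 6.45 in males and 0.902 ± 0.206 in females in cluster 3. In cluster 3, 1 cell of male library 4 held 98 of that library's 209 UMIs of H2-Eb1, and in male library 1 a cell held 30 of 66. The highest single cell of male library 4 held 154 of 499 UMIs of Cd74, 121 of 264 of H2-Aa and 105 of 259 of H2-Ab1. The 7 genes of the MHC class II list summed to 23.2 to 46.5 CPM in males and 18.9 to 35.1 in females in cluster 5. The part of other cells in these values was not tested.

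Snhg12, a small nucleolar RNA host gene, had an interaction of -0.36 (adjusted p 0.0174): its male over female log2 fold change was 0.14 in cluster 5 and 0.49 in cluster 3. Arhgap15, a Rac GTPase-activating protein, had one of 0.35 (adjusted p 0.0174), with 89.5 ± 2.30 CPM in males and 78.5 ± 5.03 in females in cluster 5, and 82.7 ± 1.401 and 93.2 ± 6.30 in cluster 3.

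Beside clusters 0 and 8, Ndrg1, a gene induced by low oxygen, had an interaction of 0.46 (adjusted p 0.0400). It averaged 66.5 ± 23.5 CPM in males and 65.5 ± 8.72 in females in cluster 5, and 70.2 ± 25.3 and 96.3 ± 3.27 in clusters 0 and 8. Of 10 alternatives for each gene, Cd74 and H2-Eb1 passed in 10, H2-Aa in 6, H2-Ab1, Snhg12 and Ndrg1 in 5 and Arhgap15 in 4. These alternatives were other tools or size factors, no low-count filter and leaving out each library. None left out or thinned cells, so they do not show how far single cells with many UMIs carry the calls.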

How the results depend on the processing

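Genes lower in cluster 5 than in clusters 0 and 8 numbered 2 with a pseudocount of 5 CPM, 2 with cells thinned to 4000 UMIs and 69 at 1.5-fold, against 4. At 1.5-fold, 3 genes were higher and 278 lower than in cluster 3, and 560 higher than in clusters 0 and 8. Leaving out 1 library gave 0 to 1 genes higher and 179 to 190 lower than in cluster 3 (the 1 appeared without male library 1), and 274 to 289 higher and 4 to 6 lower than in clusters 0 and 8.

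Sex calls in cluster 5 numbered 18 with DESeq2 (9 not sex-linked) and 22 with no low-count filter (13 not sex-linked), against 10 (2). Leaving out 1 library gave 8 to 24 (0 to 16 not sex-linked), the most without male library 3. Without the 10% of cells with most UMIs, an alternative chosen after seeing the data, 1 gene that is not sex-linked passed; Ifitm1 and Klra1 then had adjusted p of 0.438 and 0.716. Over all alternatives, Ifitm1 passed in 10 of 15 (adjusted p 8.0e-07 to 0.438) and Klra1 in 10 of 14 (0.000434 to 0.716). The causes were not tested.

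Interactions with cluster 3 numbered 2 with DESeq2 and 19 with no filter, against 6, and 3 to 11 leaving out 1 library; with clusters 0 and 8, 2 with limma-voom and 5 with no filter, against 1, and 0 to 8 leaving out 1 library. The cell share's log2 ratio stayed between -0.45 and -0.24 leaving out 1 library and passed in none of 11 alternatives; the share among cycling cells differed by 0.893 to 2.12 points. Between the sexes, no paired analysis was possible because the cells carry library numbers that the labels do not tie to numbered replicates. Cluster ratios and interaction fits paired clusters within a library only.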

Other observations

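Fcer1g and Klrb1c, which mark the innate-like cells of cluster 2, were low in cluster 5. So was Ccr7, a gene of the naive or central memory-like cells of cluster 7. Summed levels of the whole NK and innate-like list overlapped, at 805 to 2654 CPM in cluster 5 and 1552 to 3340 in cluster 2. Its member Gzma went the other way, at 524 to 2338 CPM in cluster 5 and 122 to 1245 in cluster 2. Fcer1g, a signalling adaptor of innate receptors, had a median of 33.4 CPM in cluster 5 and 383 in cluster 2, and Klrb1c (NK1.1) 4.82 and 93.8. Ccr7, which guides T cells to lymph nodes, had a median of 28.6 CPM in cluster 5 and 228 in cluster 7.

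The T cell receptor target Nr4a1 stood at 38.2, 54.7 and 80.5 CPM in cluster 5, 57.0, 69.4 and 105 in cluster 3, 65.4, 91.1 and 104 in cluster 0 and 13.7, 29.4 and 44.5 in cluster 8. Tbx21, which encodes the effector transcription factor T-bet, was level throughout, at 53.6, 63.9 and 75.1 CPM in cluster 5, 55.6, 64.9 and 77.9 in cluster 3 and 57.1, 67.9 and 77.5 in clusters 0 and 8. Fcer1g, Klrb1c, Ccr7, Nr4a1 and Tbx21 were chosen after their values were seen.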
